A study of Homo sapiens with 16 samples.

Results

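The miR-191 and miR-425 cluster was followed across 16 microRNA arrays of OE19 cells, an established human esophageal adenocarcinoma line. The members were the 4 probes named hsa-miR-191-5p, hsa-miR-191-3p, hsa-miR-425-5p and hsa-miR-425-3p, out of 2565 miRNA probes read on each array, and the cluster was selected on its telmisartan-minus-control difference in these same arrays. Telmisartan, an angiotensin II type 1 receptor blocker used against hypertension, was given at 100 μM for 48 h before RNA extraction in the 8 telmisartan-treated samples. The 8 control samples were OE19 cells kept without telmisartan for the same 48 h, so that both groups share the line, the medium and the serum. Telmisartan was dissolved in dimethyl sulfoxide, and the sample titles do not say whether the controls received this solvent. If they did not, solvent and drug cannot be told apart. The cells are 1 line, and no label tells if each sample was a culture of its own. Every error and p-value below is therefore one of array-to-array spread, which could be technical alone.

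A microRNA (miRNA) is cut from a hairpin in a longer transcript, first by Drosha in the nucleus and then by Dicer in the cytoplasm, and either arm of the hairpin (5p or 3p) can be loaded into an Argonaute protein to repress messenger RNAs that pair with its seed. The hairpins of miR-191 and miR-425 lie in an intron of DALRD3, whose protein takes part in the methylation of arginine tRNAs, and are processed from the same primary transcript. Members made from 1 transcript can still differ in their mature levels, since cropping, dicing, arm loading and decay act on each of them. Both miRNAs have been studied as growth-promoting miRNAs in several carcinomas, and both are in common use as reference miRNAs in quantitative PCR. The comparison asked whether the co-transcribed members moved together when the cells received telmisartan.

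In the RefSeq annotation of GRCh38.p14 both hairpins stand on the minus strand of chromosome 3 inside the span of DALRD3, which runs over chr3:49015488-49021505. The MIR191 hairpin is at chr3:49020618-49020709 and the MIR425 hairpin at chr3:49020148-49020234, with 383 bases between them. Of the 4 members, 3 were matched to a mature sequence in RefSeq's miRNA table, and these are shown because the seed (bases 2 to 8, in capitals) tells which members could read the same targets.
hsa-miR-191-5p: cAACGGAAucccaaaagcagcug
hsa-miR-191-3p: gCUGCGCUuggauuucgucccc
hsa-miR-425-3p: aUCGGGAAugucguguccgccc
Their mature positions are chr3:49020672-49020694 for miR-191-5p, chr3:49020631-49020652 for miR-191-3p and chr3:49020159-49020180 for miR-425-3p. The 3 seeds differ from each other, and 0 other human miRNAs in that table carry any of them. The whole MIR191 hairpin is shown with both arms in capitals, since each of them has a probe of its own on the array.
MIR191 hairpin: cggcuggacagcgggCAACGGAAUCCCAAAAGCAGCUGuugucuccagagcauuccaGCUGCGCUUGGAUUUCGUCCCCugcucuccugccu

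Between 458 and 1885 of the 2565 miRNA probes were detected on the telmisartan arrays (median 931), against 454 to 1621 on the control arrays (median 804). A probe counted as detected when its raw intensity passed the detection level, the mean plus 2 SD of that array's blank spots after trimming 5% at each end. The authors' normalized table held the 382 miRNAs detected on all 16 arrays. Both 5p arms were in it and neither 3p arm was. The arrays divided by their numbers in the labels, 1 to 4 against 5 to 8 in both groups, and no label names these sets as batches. The sample titles give no cut between arrays 4 and 5, so the cut may itself come from these data. The p-values and shares given for the sets hold only for a cut fixed beforehand. With the treatment in the model, 125 of the 382 miRNAs (32.7%) were higher and 119 (31.2%) were lower in arrays 5 to 8, so the members' differences are also given within each set. All 7 epithelial marker miRNAs were detected on every array, with a summed background-subtracted intensity of 5589 to 9072 on the telmisartan arrays and 5120 to 9456 on the control arrays. The 11 markers of other cell types summed to 49.1 to 84.0 on the telmisartan arrays and 19.3 to 82.0 on the control arrays, with 1 of them (miR-126-3p, an endothelial marker) detected on all arrays, 10 on some and 0 on none, and their part in the results was not tested.

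miR-425-5p was the member with the lower values in telmisartan-treated cells on nearly every array, and miR-191-5p was lower by a smaller amount. The authors' normalized intensity of miR-425-5p ran between 101.5 and 153.1 on the telmisartan arrays (median 120.7), against 143.0 to 241.0 on the control arrays (median 188.3). Telmisartan arrays 1 and 4 had the highest values of their group and lay above control array 7, the lowest of the controls, so that the ranges overlapped there. The lowest control value exceeded 6 of the 8 telmisartan values, and the highest telmisartan value was exceeded by 7 of the 8 control values. On the log2 scale miR-425-5p averaged 6.98 ± 0.20 in telmisartan-treated cells and 7.52 ± 0.24 in control cells (SD, n = 8 each), a difference of -0.54 (SE 0.11) or 0.687 times the control level. It had the 18th lowest difference among the 382 miRNAs. In bulk extracts a lower amount in each cell and fewer cells carrying a miRNA cannot be told apart.

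The normalized intensity of miR-191-5p ran between 272.5 and 336.7 on the telmisartan arrays (median 287.3), against 311.6 to 372.0 on the control arrays (median 328.6). Telmisartan array 8 alone reached far into the control range, telmisartan array 1 equalled the lowest control value, and the other 6 telmisartan arrays lay below every control array. The log2 mean of miR-191-5p was 8.20 ± 0.098 in telmisartan-treated cells and 8.38 ± 0.10 in control cells (SD, n = 8 each), a difference of -0.18 (SE 0.063) or 0.880 times the control level, the 87th lowest of 382. Intensities of different probes depend on their own labelling and binding, so the members are compared here by their differences between groups and not by their levels.

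**Figure D1:**
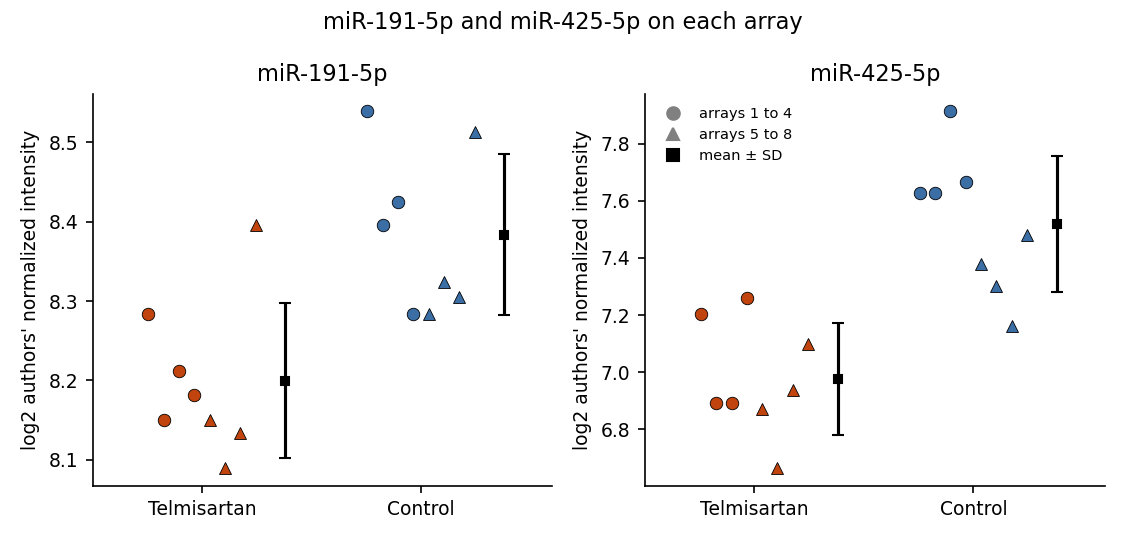
Log2 of the authors' normalized intensity of miR-191-5p (left panel) and miR-425-5p (right panel) on each telmisartan and control array. Circles are arrays 1 to 4, triangles arrays 5 to 8, and black squares with bars the mean ± SD of 8 arrays; the vertical axes do not start at 0. miR-425-5p averaged 6.98 on the telmisartan arrays and 7.52 on the control arrays, and miR-191-5p 8.20 and 8.38, with telmisartan array 8 the highest of its group for miR-191-5p.

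Since these differences belong to the contrast that chose the members, they are descriptions with no test. By limma's moderated test with Benjamini-Hochberg adjustment over the 382 miRNAs, 28 miRNAs (7.33%) were called lower in telmisartan-treated cells and 37 (9.69%) higher, and 1 of the 2 tested members (miR-425-5p) was among those called lower. With the replicate number as a block, 38 miRNAs (9.95%) were called lower and 37 higher, and both members were called. Both were also called with the array set as a block, which gave 49 lower calls (12.8%), and by the methods' Mann-Whitney test in its exact form, which gave 23 (6.02%). Without telmisartan array 8 both members were called, where 25 of the 382 miRNAs (6.54%) were called lower and 33 (8.64%) higher. With each array scaled to its median in place of quantile normalization, 14 miRNAs (3.66%) were called lower and neither member was. Without any scaling 12 miRNAs (3.14%) were called lower, again with neither member. Where undetected values were treated as missing in 646 probes, 11 miRNAs were called higher and 13 lower (2.01%), and none of the 3 members tested there was called.

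Within arrays 1 to 4, miR-425-5p averaged 7.06 ± 0.20 in telmisartan-treated cells and 7.71 ± 0.14 in control cells (SD, n = 4 each), which is 0.638 times the control level. Within arrays 5 to 8 it averaged 6.89 ± 0.18 in telmisartan-treated cells and 7.33 ± 0.14 in control cells, which is 0.739 times. The groups did not overlap within either set. Among all 382 miRNAs, 55 (14.4%) lay below the control on every array of the first set and 33 (8.64%) on every array of the second, and 5 (1.31%) did so over all 16 arrays, miR-425-5p not among them. miR-191-5p stood at 0.868 times the control level within arrays 1 to 4 and at 0.892 times within arrays 5 to 8, with groups that overlapped or touched in both. Lower means in both sets were found for 104 of the 382 miRNAs (27.2%). Telmisartan was below control in 8 of 8 pairs of arrays with the same number for each of the 2 members. No label says that arrays with the same number belong together. How many of all miRNAs show such a count was not worked out, so it is a description only.

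How far miR-191-5p moved depended on how the arrays were scaled. The background-subtracted intensity of miR-191-5p, before any normalization, ran between 232.7 and 377.5 on the telmisartan arrays (median 312.9), against 251.7 to 393.5 on the control arrays (median 288.6). It was lower in 3 and higher in 5 of the 8 pairs of same-numbered arrays. miR-425-5p before normalization ran between 98.8 and 151.0 on the telmisartan arrays (median 137.5), against 134.6 to 233.7 on the control arrays (median 173.6), and it was lower in 7 of 8 pairs. Without scaling the difference of miR-191-5p was 0.033 (SE 0.15) and that of miR-425-5p was -0.40 (SE 0.15), while the median of all 382 miRNAs was shifted by 0.18. Relative to that median miR-191-5p stood at -0.14 and miR-425-5p at -0.58 on the log2 scale. In the deposited globally normalized values the difference of miR-191-5p was 0.094 (SE 0.54), against a median of 0.24 over the probes tested, and relative to it miR-191-5p stood at -0.14 and miR-425-5p at -0.58. The sign of miR-191-5p thus turned with the scaling. No scaling, median scaling and global normalization differ only by a factor that scales the whole array. For probes with a value on every array, such a factor cannot change a place relative to their median, so the agreement of these values was fixed in advance. Quantile normalization does more than this. Relative to the median, miR-191-5p stood at -0.18 in the authors' values, -0.29 with quantile normalization over detected probes and -0.16 after normexp background correction.

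**Figure D2:**
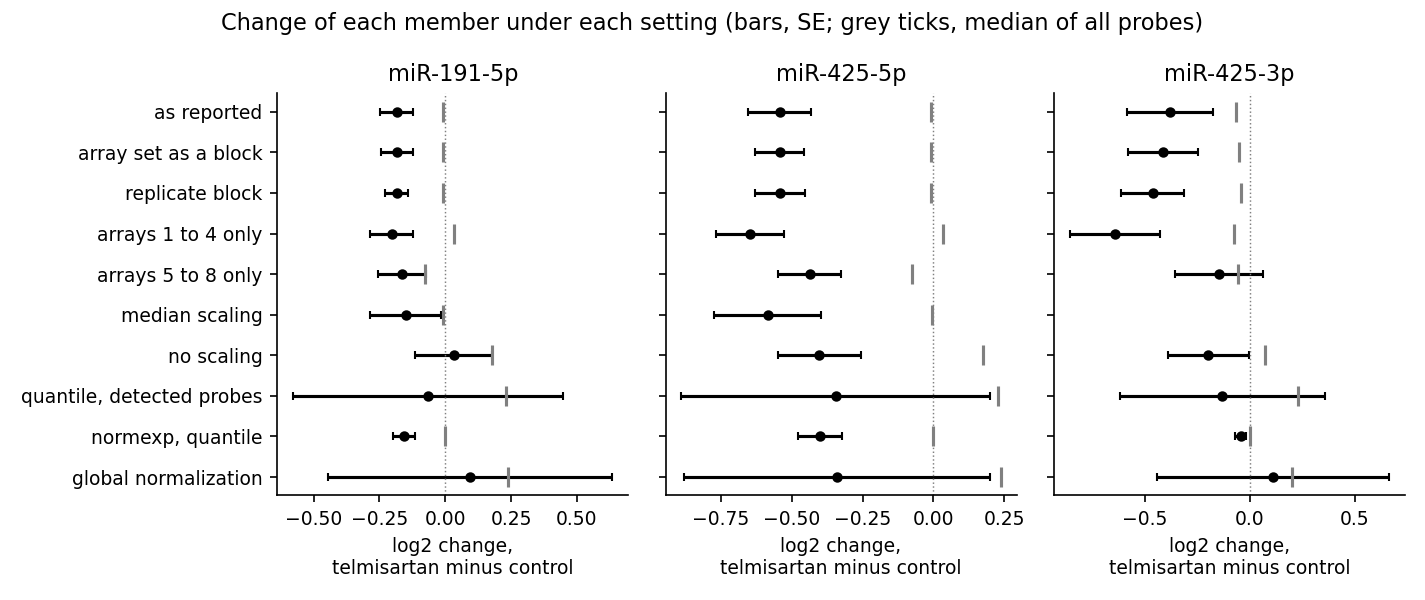
Log2 difference (telmisartan minus control) of 3 cluster members under each setting, with bars of 1 SE and grey ticks at the median of all probes tested; the reported setting of miR-425-3p is itself the median-scaled one. miR-191-5p was at -0.18 as reported and at 0.033 without scaling, and miR-425-5p was below 0 in each row, at -0.54 as reported and -0.40 without scaling.

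The ratio of miR-425-5p to miR-191-5p within an array does not depend on a factor that scales the whole array. It was lower in telmisartan-treated cells. The log2 ratio of background-subtracted intensities ran between -1.35 and -1.06 on the telmisartan arrays (median -1.25), against -1.09 to -0.47 on the control arrays (median -0.83). Only telmisartan array 4 entered the control range, and the other 7 were below all 8 control arrays. The mean log2 ratio was -1.25 ± 0.088 in telmisartan-treated cells and -0.81 ± 0.22 in control cells (SD, n = 8 each), a difference of -0.44 (SE 0.084), so that the ratio in telmisartan-treated cells was 0.739 times that in control cells. It was 0.675 times within arrays 1 to 4 and 0.810 times within arrays 5 to 8. The ratio shows an unequal change of the members and does not say which of them changed. As both probes belong to the contrast that chose the members, no test is given.

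The control arrays themselves differed by set in this ratio. Within the control group the ratio was lower in arrays 5 to 8, with a mean of -0.996 ± 0.077, than in arrays 1 to 4, with a mean of -0.63 ± 0.14 (SD, n = 4 each). The difference of -0.36 gave an exact two-sided permutation p of 0.0286, the smallest that 4 arrays against 4 can give, and 0.171 after adjustment over 6 such tests. Within the telmisartan group the difference between the sets was -0.10 (exact permutation p = 0.0857, adjusted 0.257). With 4 arrays against 4 the adjusted value of a lone set difference could not have passed, whatever its size, and the control arrays of the 2 sets did not overlap in this ratio.

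**Figure D3:**
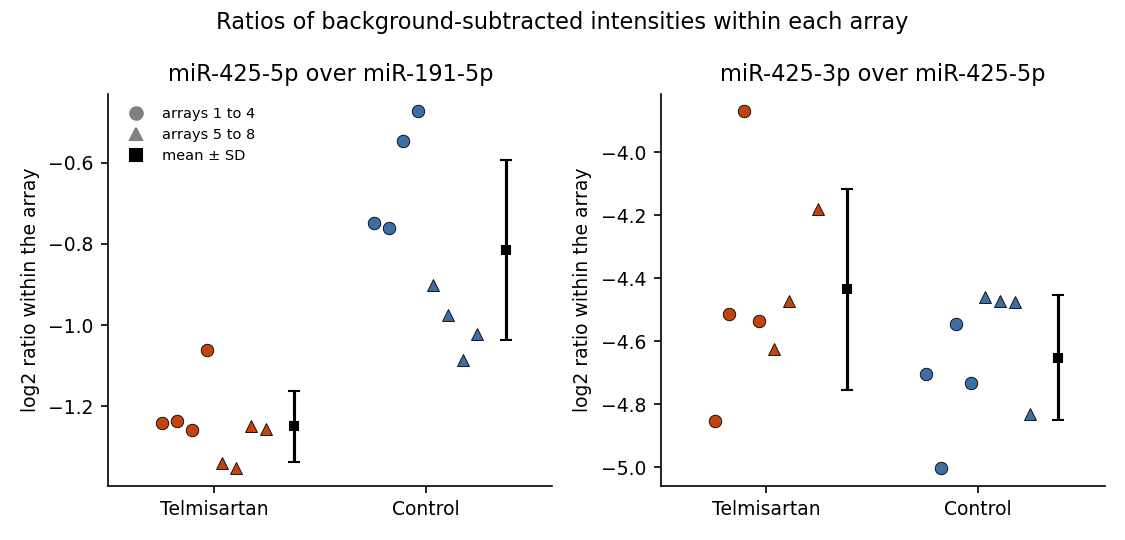
Log2 ratio of background-subtracted intensities within each array, miR-425-5p over miR-191-5p (left panel) and miR-425-3p over miR-425-5p (right panel), for telmisartan and control arrays; circles are arrays 1 to 4, triangles arrays 5 to 8, squares with bars the mean ± SD. The first ratio averaged -1.25 on the telmisartan arrays and -0.81 on the control arrays, and the second -4.43 and -4.65 with overlapping ranges.

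The 3p arms, the partners of the 5p arms in each hairpin, were close to the detection level. The background-subtracted intensity of miR-425-3p was 5.23, 4.33, 8.32, 5.99, 6.04, 6.14 and 6.81 on telmisartan arrays 1 to 6 and 8, and it was not detected on telmisartan array 7. On control arrays 1 to 8 it was 6.37, 4.94, 10.0, 6.82, 9.11, 6.06, 6.33 and 6.82. The raw intensity lay between 0.944 and 1.22 times the detection level on the telmisartan arrays and between 1.10 and 1.35 times on the control arrays. After scaling each array to its median, the log2 value of miR-425-3p averaged -2.70 ± 0.38 in telmisartan-treated cells (SD, n = 7) and -2.32 ± 0.44 in control cells (SD, n = 8). The difference was -0.38 (SE 0.20), or 0.768 times the control level, with overlapping ranges. It was 0.641 times within arrays 1 to 4 and 0.903 times within arrays 5 to 8, where 3 telmisartan arrays stood against 4 control arrays. Its mean difference had the same sign as that of its 5p partner, and telmisartan array 7 was missing in this fit. With the array set as a block the difference was -0.41 (SE 0.17) and with the replicate block -0.46 (SE 0.15), and miR-425-3p was called in neither, where 40 (6.19%) and 28 (4.33%) of the 646 probes were called lower. On other scales the difference of miR-425-3p was -0.20 (SE 0.19) without scaling and 0.11 (SE 0.55) in the globally normalized values. It was -0.13 (SE 0.49) with quantile normalization over detected probes, where undetected values were set to the lowest value. After normexp background correction it was -0.043 (SE 0.027). The offset of 50 added there lies far above the signal of this probe and draws its differences toward 0. The size thus depended on the processing, and the sign in the globally normalized values was not resolved at its SE. Relative to the median of the probes tested it was below 0 on each of these scales. It stood at -0.32 as reported, at -0.27 without scaling and at -0.089 in the globally normalized values, where that median was 0.20. A factor that scales the whole array can change this place here, since arrays without a value, as telmisartan array 7 for miR-425-3p, drop out of the means.

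The log2 ratio of miR-425-3p to miR-425-5p within an array averaged -4.43 ± 0.32 in telmisartan-treated cells (SD, n = 7) and -4.65 ± 0.20 in control cells (SD, n = 8). The difference of 0.22 (SE 0.14) corresponds to a fold of 1.16, and only 2 telmisartan arrays lay above every control array, so that unequal change of the 2 arms of miR-425 was not resolved at this signal. The log2 ratio of miR-425-3p to miR-191-5p differed by -0.22 (SE 0.15).

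miR-191-3p was detected on 2 of 8 telmisartan arrays and 3 of 8 control arrays. Its background-subtracted intensity was 3.65 on telmisartan array 4 and 1.72 on telmisartan array 6, against 4.63, 9.15 and 2.86 on control arrays 1, 3 and 5. The raw intensity lay between 0.808 and 1.06 times the detection level on the telmisartan arrays and between 0.890 and 1.18 times on the control arrays. With so few detected values no difference is given for this arm, and whether it moved with the other members could not be told at this signal.

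**Figure D4:**
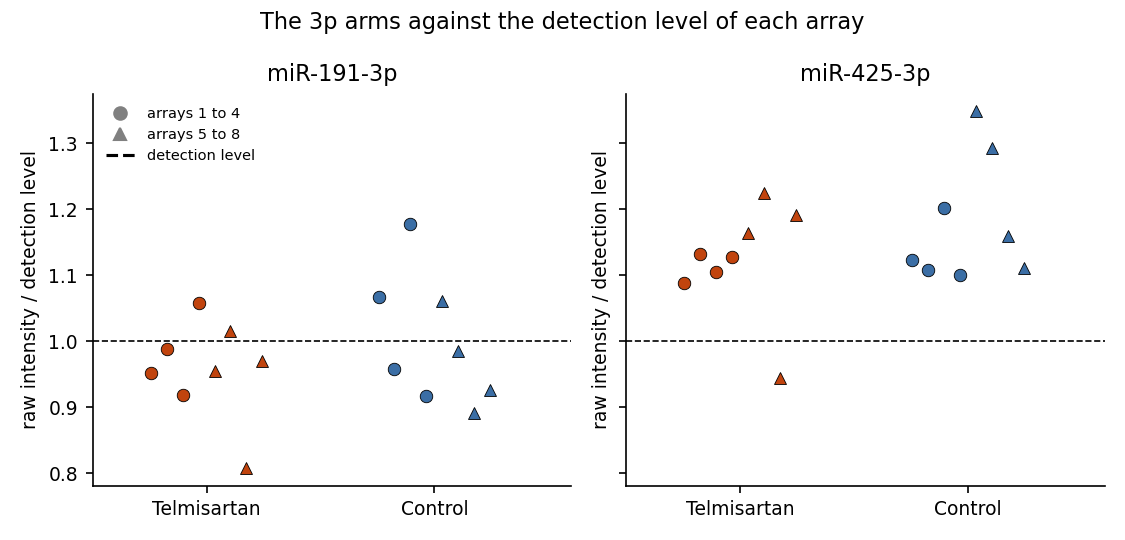
Raw intensity of miR-191-3p (left panel) and miR-425-3p (right panel) divided by the detection level of the same array, for each telmisartan and control array; the dashed line marks the detection level. miR-191-3p passed it on 2 telmisartan and 3 control arrays, and miR-425-3p on 7 telmisartan and 8 control arrays, at no more than 1.35 times.

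The difference between array sets was not used to choose the members and was tested, for a cut that the sample titles do not give. By limma with Benjamini-Hochberg adjustment over 382 miRNAs, miR-425-5p was lower in arrays 5 to 8 than in arrays 1 to 4 by a log2 difference of -0.27 (SE 0.087, adjusted p = 0.0135). The same difference of miR-191-5p was -0.034 (SE 0.061, adjusted p = 0.647). miR-425-3p, in the median-scaled fit of 646 probes by limma, differed by -0.48 (SE 0.17, adjusted p = 0.0259), where 171 of the 646 probes (26.5%) were called lower and 165 (25.5%) higher. So 1 of the 2 members in the table was called lower beside 31.2% of all miRNAs tested, so that such a call was common on these arrays. The calls for the sets depended on the scaling. With median scaling both were lower in arrays 5 to 8, miR-425-5p by -0.53 (limma adjusted p = 0.00382) and miR-191-5p by -0.30 (limma adjusted p = 0.0286), where 145 of the 382 miRNAs (38%) were called lower and 111 (29.1%) higher. Without scaling miR-425-5p differed by -0.016 (limma adjusted p = 0.932) and miR-191-5p by 0.22 (limma adjusted p = 0.204), where 201 of the 382 (52.6%) were called higher and 24 (6.28%) lower and the median of all was shifted by 0.43.

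Whether the telmisartan difference itself differed between the sets was tested as an interaction in limma. The interaction of miR-425-5p was 0.21 (SE 0.17, adjusted p = 0.314), of miR-191-5p 0.039 (SE 0.12, adjusted p = 0.807) and of miR-425-3p 0.50 (SE 0.31, adjusted p = 0.273). None of the 3 passed, while 63 of the 382 miRNAs (16.5%) had a higher and 72 (18.8%) a lower telmisartan difference in arrays 5 to 8, and in the fit of 631 median-scaled probes 87 (13.8%) had a higher and 42 (6.66%) a lower one. With median scaling, however, the interaction of miR-425-5p was 0.72 (limma adjusted p = 0.0174), where 111 of the 382 miRNAs (29.1%) had a higher and 52 (13.6%) a lower one, so that such a call was common in that scaling. The interaction of miR-191-5p with median scaling was 0.46 (limma adjusted p = 0.0621), larger than in the authors' normalized values and not called.

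Co-variation between the members was looked for in what was left after the mean of each treatment and set had been taken out. The deviations of miR-191-5p and miR-425-5p had a Pearson r of 0.516 over 16 arrays (permutation p = 0.0643, adjusted 0.130 over 3 pairs) and a Spearman rho of 0.489 (permutation p = 0.0817, adjusted 0.151). Without the 2 arrays farthest from the median of miR-191-5p (control arrays 1 and 8), r was 0.597 (permutation p = 0.0690). For miR-425-5p and miR-425-3p, the arms of 1 hairpin, r was 0.553 over 15 arrays (permutation p = 0.0867, adjusted 0.130) and rho was 0.525 (permutation p = 0.101, adjusted 0.151), with r at 0.515 without the 2 farthest arrays. For miR-191-5p and miR-425-3p, r was 0.377 (permutation p = 0.285, adjusted 0.285) and rho was 0.268 (permutation p = 0.420), with r at 0.173 without the 2 farthest arrays. All 3 coefficients were positive and none passed the threshold on these scales. The 2 pairs with miR-425-3p were computed on median-scaled values and the pair of 5p arms on the authors' normalized values. With median scaling the same array median is subtracted from both members, and without scaling both carry the intensity of the whole array. Either can add a positive part to r for any pair, so the sign on those 2 scales is no sign of co-transcription. On other scales r of the 5p arms was larger, at 0.894 with median scaling (permutation p = 0.00061) and 0.916 without scaling (permutation p = 0.00024), both unadjusted, so that the call for this pair depended on the scaling. How other pairs of miRNAs correlate on these 2 scales was not computed, so whether such values are particular to this pair is not known. The cause was not tested.

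The miRNAs most like each 5p arm in their deviations from the treatment means over the 16 arrays were different ones. For miR-425-5p they were miR-20b-5p (r = 0.924), miR-151b (0.918), miR-30a-3p (0.917), miR-24-2-5p (0.912) and miR-484 (0.910). For miR-191-5p they were miR-194-5p (0.635), miR-28-3p (0.573), miR-769-5p (0.556), miR-423-3p (0.544) and miR-29c-5p (0.539). Among the 381 other miRNAs of the table miR-425-5p was the 10th most like miR-191-5p, while miR-191-5p was the 133rd most like miR-425-5p, both with r = 0.502. With the array set taken out as well, they were the 19th and the 87th in these orders, with r = 0.516, and miR-769-5p and miR-29c-5p were then the 15th and the 18th most like miR-191-5p. These coefficients are descriptions over arrays that share the division into sets, between which miR-425-5p was called different and miR-191-5p was not.

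Both 5p arms are used as reference miRNAs, whose level is taken as constant, so their spread was set beside that of a list of 8 miRNAs used for that purpose. The SD of miR-191-5p around the treatment means was 0.0999 on the log2 scale, and only 7 of the 382 miRNAs had a smaller one. miR-425-5p had an SD of 0.218, with 91 miRNAs below it, and the median over all 382 was 0.312. Without scaling the SD of miR-191-5p was 0.235 with 16 miRNAs below it, and that of miR-425-5p 0.237 with 19 below it. The median over all 382 was then 0.458. With median scaling the SD of miR-191-5p was 0.263 with 110 miRNAs below it, and that of miR-425-5p 0.398 with 230 below it, beside a median of 0.344. The rank of both spreads was thus low in the authors' values and without scaling. With median scaling it was higher for both, and miR-425-5p lay above the median. Of the other reference miRNAs, miR-423-5p (SD 0.128) was called higher by a log2 difference of 0.41 and miR-93-5p (SD 0.145) lower by -0.27. miR-423-3p, miR-103a-3p, miR-16-5p and let-7a-5p had SDs between 0.290 and 0.488 and were not called. Within arrays 1 to 4 and 5 to 8 the differences were 0.38 and 0.45 for miR-423-5p and -0.25 and -0.28 for miR-93-5p, while miR-423-3p had -0.18 and 0.33. Counting the 2 members, 2 of the 8 were called lower, 1 higher and 5 neither, with a median difference of 0.16 beside -0.0079 over all 382. Over all 382 miRNAs, 7.33% were called lower and 9.69% higher. Of the 2 lower calls, 1 was miR-425-5p, which was chosen on this contrast, and 8 miRNAs are too few to set against those shares.

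**Figure D5:**
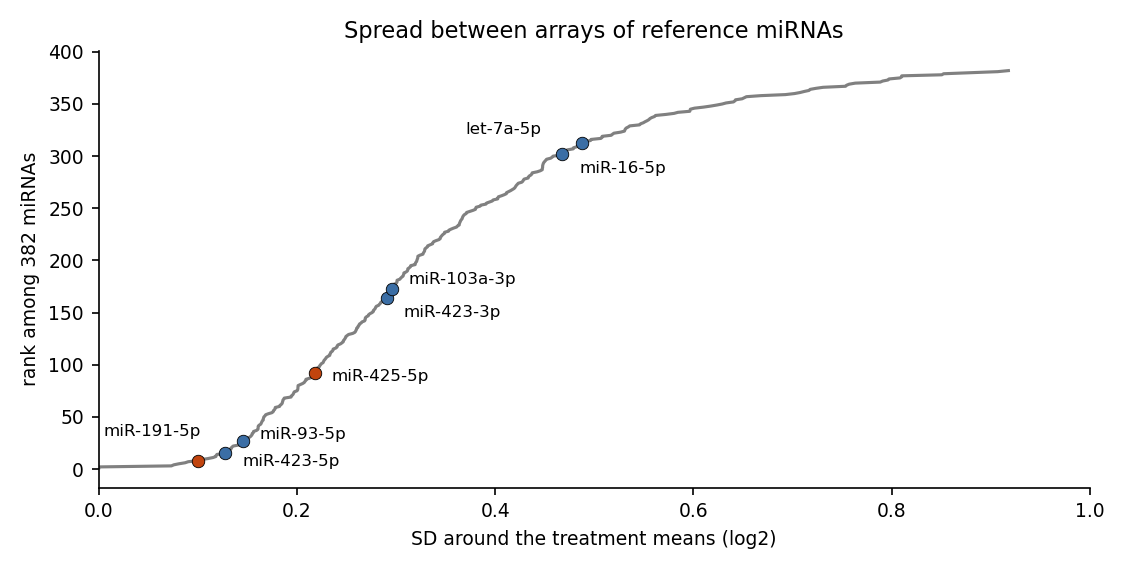
SD of the authors' normalized values around the treatment means (log2, horizontal axis) against its rank among 382 miRNAs (vertical axis); the grey line holds all miRNAs, red points the 2 cluster members and blue points the other 6 reference miRNAs. miR-191-5p, at an SD of 0.0999, and miR-423-5p, at 0.128, had the narrowest spread of the 8, and let-7a-5p, at 0.488, the widest.

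Other miRNAs encoded within 5 Mb of the cluster on chromosome 3 were few in the data. RefSeq places 18 further hairpins there with 28 mature arms, all 28 on the array, 1 of them detected on no array and 5 in the authors' table. Their log2 differences were -0.18 for miR-4443, 0.0095 for miR-5787, -0.50 for miR-6872-3p, 0.086 for miR-4787-5p and 0.45 for let-7g-5p, a member of the let-7 family of differentiation-linked miRNAs. let-7g-5p averaged 9.18 ± 0.23 in telmisartan-treated cells and 8.73 ± 0.24 in control cells (SD, n = 8 each; limma adjusted p = 0.0147) and was the only one of the 5 called. Its difference came to 0.15 in the first set of arrays and to 0.75 in the second, so that the call rested mostly on arrays 5 to 8. miR-5787 (0.40 in the first set and -0.38 in the second) and miR-4787-5p (0.45 and -0.27) had opposite signs in the 2 sets. The median of the 5 was 0.0095 beside -0.0079 for all 382 miRNAs, with 1 called higher and 0 lower. Over all 382 miRNAs, 9.69% were called higher and 7.33% lower, and 1 call among 5 cannot be set apart from such shares.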

How the data were processed

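Total RNA of 8 telmisartan-treated and 8 control OE19 samples was labelled and hybridised to 1-color 3D-Gene human miRNA arrays with 1 probe per miRNA; the labels name Hy3 as the dye and their labelling protocol Hy5. The deposited array files hold the raw intensity, the background-subtracted intensity and a globally normalized intensity per probe. The authors' table of normalized intensity was rebuilt as quantile normalization of the background-subtracted values over the 382 miRNAs detected on all 16 arrays, to a relative difference of 4.88e-10, so that each value is a level shared by all arrays and set by rank. Series columns left unused numbered 0.

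The test was limma's (version 3.58.1, under R 4.3.3) on the log2 scale (lmFit and eBayes, with Benjamini-Hochberg adjustment over all probes, adjusted p threshold 0.05), and the scripts were tested on simulated data. The 3p arms, outside that table, were taken as log2 of background-subtracted intensity minus the array's median over the 382, with undetected values missing. A fit required detection on at least 6 of 8 arrays in either group, so that a probe could enter through a single group. Permutation tests drew 100000 permutations within treatment and array set, or were exact for 4 arrays against 4. Deviations of arrays with the same number had correlations of 0.149 to 0.864 over the 382 miRNAs in 8 of 8 pairs, and the best match was the array's own number in 4 of the 8. The numbers, which come from the sample titles, were used as a replicate block in an alternative. With the array set taken out the correlations ran from -0.458 to 0.454, with 5 of 8 over 0.1, so that much of the likeness lay in the division into sets. Precision is limited by how many arrays there are. The named miRNAs are the members, 8 reference miRNAs, miRNAs sharing a seed, those encoded within 5 Mb and the 5 most like each 5p arm. The members and lists were chosen with earlier results of these data known. Alternatives were other scalings and filters, a limma intensity trend, the Mann-Whitney test, blocks, each array set alone and leaving out each array.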

Additional observations from a re-analysis of the deposited data

Results flagged for a closer look

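In 14 sets of 7 or 8 arrays checked for a lone extreme value, 1 was found. The log2 ratio of miR-425-5p over miR-191-5p was -1.06 on telmisartan array 4, apart from the other 7 telmisartan arrays, which lay between -1.35 and -1.24, and a gap of 0.601 of the group's range separated it from them. It is also the telmisartan array that entered the control range of -1.09 to -0.47. Chance flags about 1 in 20 groups, and 14 were checked.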

How the results depend on the processing

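The difference of miR-425-5p kept its direction under all 27 alternatives that gave it, and that of the ratio of miR-425-5p over miR-191-5p under all 19. miR-191-5p reversed to 0.033 without scaling and to 0.094 in the globally normalized values (chosen after seeing the data), and was -0.065 with quantile normalization over detected probes. miR-425-3p was 0.11 (SE 0.55) in the globally normalized values, a sign that was not resolved at that SE. The cause of these shifts was not tested. Beside 37 higher and 28 lower calls, 37 and 38 were made with the replicate block and 48 and 49 with the array set as a block, 74 and 70 in arrays 1 to 4 alone, 17 and 14 with median scaling, 18 and 12 without scaling, and 11 and 13 with undetected values missing. Quantile normalization over detected probes gave 0 and 0 calls in limma (7 of 646 at an unadjusted p under 0.05), and the globally normalized values 1 and 0 (3 at an unadjusted p under 0.05). The first of these matched arrays with 454 to 1885 detected probes and set undetected values to the lowest value. Its SE was 0.51 for miR-191-5p and 0.55 for miR-425-5p, and 0.54 for both in the globally normalized values, against 0.063 and 0.11 as reported. So few calls in these 2 settings therefore do not show an absence of change. The replicate block changed the call of miR-191-5p and not that of miR-425-5p or, in the median-scaled fit, miR-425-3p.

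The array-set difference of miR-191-5p was -0.30 with median scaling and 0.22 without scaling, and that of miR-425-5p was -0.53 with median scaling and -0.016 without scaling. The interaction was 0.72 for miR-425-5p and 0.46 for miR-191-5p with median scaling. That of miR-191-5p, 0.039 in the authors' values, reversed to -0.028 without telmisartan array 8 and to -0.0034 without control array 1. Co-variation of the 5p arms was 0.894 with median scaling and 0.916 without scaling. With deviations from the treatment means alone it was 0.708 for miR-191-5p and miR-425-3p and 0.800 for the arms of miR-425.

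Leaving out each array in turn gave differences of -0.21 to -0.16 for miR-191-5p, -0.59 to -0.49 for miR-425-5p and -0.47 to -0.29 for miR-425-3p, with 30 to 38 higher and 21 to 32 lower calls. The array-set difference ran from -0.067 to -0.013 for miR-191-5p and from -0.31 to -0.23 for miR-425-5p, and the interaction from -0.028 to 0.092 and from 0.14 to 0.29. The ratio of miR-425-5p over miR-191-5p changed by -0.47 to -0.39 and that of miR-425-3p over miR-425-5p by 0.12 to 0.29. Co-variation ran from 0.355 to 0.645 for the 5p arms, with an unadjusted permutation p of 0.0448 without telmisartan array 4, 0.0204 without control array 1 and 0.0466 without control array 3. It ran from 0.169 to 0.545 for miR-191-5p and miR-425-3p, and from 0.388 to 0.747 for the arms of miR-425, with 0.0336 without telmisartan array 1 and 0.00942 without telmisartan array 3. The signal of the 3p arms, at most 1.35 times the detection level, limits what can be said of them.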
